A study of Mus musculus with 12 samples.

Results

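The genes described here are 7 transcription factor genes of the tailbud and the presomitic mesoderm, the unsegmented tissue behind the last somite: T, Tbx6, Msgn1, Cdx1, Cdx2, Cdx4 and Nkx1-2. They were taken by symbol from a table of read counts with 23284 genes, in which all 7 had a row, and all 7 passed the filter on low counts. The counts come from poly-A RNA-seq of 12 mouse embryos, each sequenced whole and alone, from a C57BL/6 x 129Sv cross, collected at 9.0 days post coitum with about 9 to 10 somites. Wild-type embryos number 4, and 8 embryos are labelled Tgif1;Tgif2 null. The series text calls the latter conditional double mutants without either allele of Tgif1 and Tgif2; the sources used here do not give the Cre line or other means of deletion, the cells it acted in, or the litters and sexes. Total counts ran from 17296017 to 20080786 in wild type and from 16802367 to 21346245 in the other group. Levels are in CPM, that is counts per 1000000 after TMM scaling of library sizes. Tgif1 stood at 58.5 to 64.2 CPM in wild type and at 5.5 to 6.87 CPM in the 8 other embryos, while Tgif2 RNA overlapped between the groups (85.7 to 88.5 against 84.4 to 116 CPM); reads are summed over each gene, so RNA that survives a partial deletion would still be counted, and the embryos are called mutant-labelled here.

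The vertebrate trunk grows from progenitors at its posterior end that give rise to both spinal cord and paraxial mesoderm. Wnt and FGF signals there maintain T, the Cdx genes and Nkx1-2, and cells that enter the presomitic mesoderm switch on Tbx6 and Msgn1. T encodes brachyury, the T-box factor of the primitive streak, tailbud and notochord. Tbx6 encodes a T-box factor that commits cells to paraxial mesoderm, and Msgn1 encodes mesogenin, a bHLH factor of the same step. Cdx1, Cdx2 and Cdx4 encode caudal homeodomain factors that drive axial elongation and activate Hox genes of the trunk, and Cdx2 is also a gene of the hindgut and trophectoderm. Nkx1-2 encodes a homeodomain factor of the preneural tube and caudal lateral epiblast.

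All 7 genes had a lower mean in the mutant-labelled embryos, and 4 of them passed the test over all 12 embryos: Nkx1-2, Cdx1, Tbx6 and T. Over the whole table of 14412 genes tested, 51.5% were called and 24.9% were called as lower, so a lower call is common in this comparison. A called fall of at least 2-fold is less common: 3 of the 7 genes (Nkx1-2, Cdx1 and Tbx6) had one, against 1.39% of all genes. Nkx1-2 fell most, to 25.5% of the wild-type mean, and Cdx2 had the smallest difference, at 60%. Mutant-labelled embryo 2 was the lowest of all 12 embryos in every gene but Cdx1, with Msgn1 at 0 counts. The genotype test of each of the 7 genes is therefore given with and without it. Tests and profiles of other genes and lists are over all 12 embryos unless stated. The bulk counts cannot tell fewer posterior cells from less RNA per cell.

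**Figure D1:**
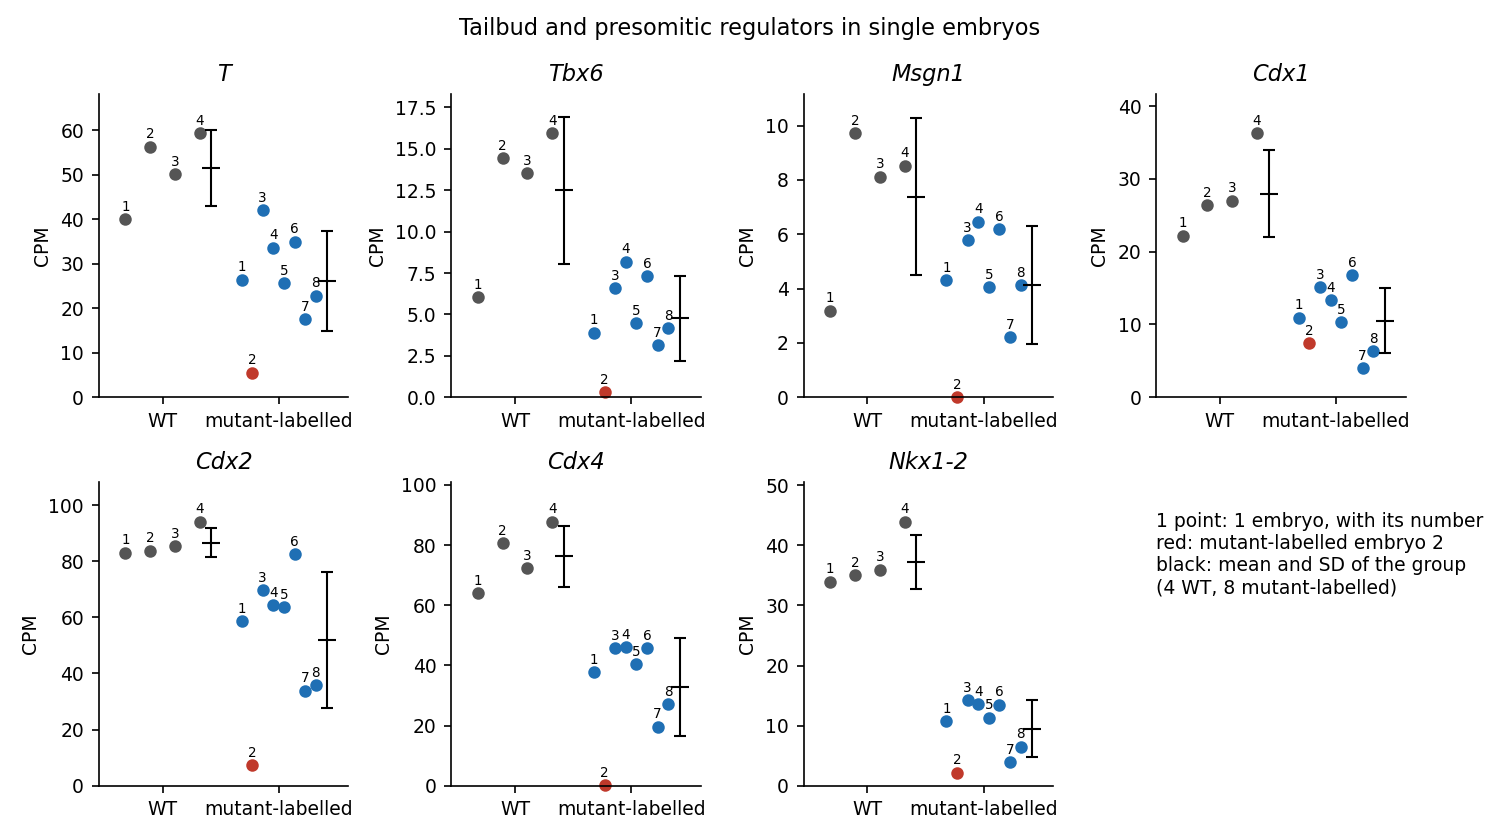
Level in CPM (vertical axes, from 0) of the 7 genes in each of 4 wild-type and 8 mutant-labelled embryos, with embryo numbers; black marks are group mean and SD. Mutant-labelled embryo 2, in red, lies at or near 0 for Tbx6, Msgn1 and Cdx4 but at 7.43 CPM for Cdx1, above embryos 7 and 8, and wild-type embryo 1 is the lowest wild-type embryo in each panel.

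Promoter sequences are shown for Tbx6, Msgn1 and Cdx4, the genes that came closest to 0 in that embryo. Each run is the stretch of up to 250 bases before the annotated start, on the gene's own strand, from RefSeq in build GRCm38.p6, while the counts were made on mm9. The stretch lies at chr7:126781233-126781482 (plus strand) for Tbx6, at chr12:11208973-11209198 (minus strand) for Msgn1, where 24 bases that an annotated exon holds are left off, and at chrX:103321148-103321397 (plus strand) for Cdx4. Capitals mark a match to a motif searched for.
Tbx6: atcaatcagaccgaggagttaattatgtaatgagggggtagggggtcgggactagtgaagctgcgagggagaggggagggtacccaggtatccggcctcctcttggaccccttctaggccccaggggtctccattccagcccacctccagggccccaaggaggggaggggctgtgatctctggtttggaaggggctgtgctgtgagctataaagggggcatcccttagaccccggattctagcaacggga
Msgn1: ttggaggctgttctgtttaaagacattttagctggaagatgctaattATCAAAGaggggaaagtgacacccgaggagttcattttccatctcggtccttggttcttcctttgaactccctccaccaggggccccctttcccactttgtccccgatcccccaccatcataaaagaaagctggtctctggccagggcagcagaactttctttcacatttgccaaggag
Cdx4: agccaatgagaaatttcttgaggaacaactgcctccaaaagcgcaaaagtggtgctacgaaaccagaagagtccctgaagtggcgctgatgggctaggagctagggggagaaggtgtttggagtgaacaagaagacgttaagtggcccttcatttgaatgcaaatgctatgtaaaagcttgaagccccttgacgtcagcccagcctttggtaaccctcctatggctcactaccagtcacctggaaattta

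Windows of 250 bases were found in RefSeq for 6 of the 7 genes, and 5 motifs were searched on both strands in these and in all 32851 windows. The TCF/LEF motif of Wnt target genes, CTTTGAT, occurred once, in Msgn1, where it reads on the opposite strand (the capitals), 203 bases before the RefSeq start (3.21% of all windows hold it). The full T-box site TCACACCT (1.12% of windows), its core GGTGTG (16.3%), which lies within that site on the opposite strand, the caudal site TTTATTG (4.2%) and the TGIF site CTGTCA (15.9%) occurred in none of the 6. These are matches of letters in a short window and say nothing of binding elsewhere.

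Levels in wild type differed between the genes. Per kilobase of annotated exon (GENCODE M21), Cdx4 at 38.8 ± 5.23 and Cdx2 at 38.3 ± 2.27 CPM per kb (SD, n = 4) were the highest, with ranges that overlapped. T followed at 22.2 ± 3.67, Cdx1 at 16 ± 3.4, Msgn1 at 12.1 ± 4.7 and Nkx1-2 at 11.4 ± 1.4 CPM per kb, and Tbx6 was the lowest at 6.92 ± 2.45 CPM per kb. Among neighbours in this order, the ranges of Cdx2 and T and those of Nkx1-2 and Tbx6 did not overlap, while each of the other pairs of neighbours did. Nkx1-2 shares exon sequence with an annotated gene on the opposite strand, Gm16764, and the strand setting of the counting is not given, so its reads may hold some of that gene. The other members have neither an overlapping exon nor a near-identical copy in the transcript set.

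Nkx1-2 marks the epiblast that still feeds the growing spinal cord, and it had the largest fold change of the 7 genes. It stood at 33.9, 35, 36 and 44 CPM in wild-type embryos 1 to 4, and at 2.19 (lowest), 11 (median) and 14.3 CPM (highest) in the mutant-labelled embryos. The groups did not overlap, and the highest mutant-labelled embryo lay below 15 CPM. The log2 fold change was -1.97 (SE 0.38, adjusted p = 0.00121, edgeR quasi-likelihood test over all genes). Without mutant-labelled embryo 2 it was -1.82 (SE 0.27, adjusted p = 0.000199), or 28.3% of wild type.

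Among the caudal genes Cdx1 had the largest fitted fold change. Its wild-type levels were 22.2, 26.4, 27 and 36.3 CPM, and the mutant-labelled embryos had a lowest value of 4.02, a median of 10.6 and a highest value of 16.8 CPM. The groups did not overlap. The lowest value belonged to embryo 7, not embryo 2. The log2 fold change was -1.41 (SE 0.30, adjusted p = 0.00187), and -1.35 (SE 0.31, adjusted p = 0.00373) without embryo 2.

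Cdx4, a caudal gene of the posterior end, stood at 64.1, 80.6, 72.3 and 87.8 CPM in wild-type embryos 1 to 4. Mutant-labelled embryos ran from 0.238 CPM through a median of 39 CPM to 46 CPM, again with no overlap. Because embryo 2 lay so far below the others, the difference did not pass over all 12 embryos (log2 fold change -1.22, SE 0.59, adjusted p = 0.108). Without it Cdx4 fell by 1.03 on the log2 scale (SE 0.21, adjusted p = 0.00167), to 49.1% of wild type, with the remaining 7 embryos at 19.6 to 46 CPM.

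Cdx2 had the smallest difference of the 3 caudal genes. Its wild-type embryos were close together at 83.1, 83.8, 85.4 and 94.2 CPM, and the mutant-labelled embryos spread from 7.43 through a median of 61.1 to 82.5 CPM. The highest of these, embryo 6, lay just under the lowest wild-type embryo, so the groups touched without overlapping. The log2 fold change was -0.74 (SE 0.43, adjusted p = 0.179) over all embryos and -0.57 (SE 0.22, adjusted p = 0.0475) without embryo 2. The call without embryo 2 was lost when wild-type embryo 1 was left out as well (-0.59, SE 0.25, adjusted p = 0.0841).

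T, which marks streak, tailbud and notochord, stood at 40.1, 56.3, 50.2 and 59.4 CPM in wild type and at 5.52 (lowest), 26.1 (median) and 42 CPM (highest) in the mutant-labelled embryos. Embryo 3 overlapped the wild-type range by lying above wild-type embryo 1, and the other 7 lay below every wild-type embryo. The log2 fold change of -0.99 (SE 0.37) was close to the threshold (adjusted p = 0.0443). It was -0.83 (SE 0.20, adjusted p = 0.00484) without embryo 2. The call rests on which embryos are kept: it held in 4 of 12 fits that left out 1 embryo, with adjusted p up to 0.105 without wild-type embryo 4. It was lost without any 1 of the wild-type embryos and without mutant-labelled embryo 1, 5, 7 or 8.

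Tbx6 and Msgn1, the presomitic pair, were the least abundant in counts. Tbx6 stood at 6.03, 14.4, 13.5 and 16 CPM in wild-type embryos 1 to 4, and at 0.286 (lowest), 4.32 (median) and 8.19 CPM (highest) in the mutant-labelled embryos. Embryo 1 was thus at 41.2% of the mean of the other wild-type embryos and below 3 mutant-labelled embryos. Tbx6 fell by 1.40 on the log2 scale (SE 0.49, adjusted p = 0.0324), and by 1.21 (SE 0.29, adjusted p = 0.00392) without mutant-labelled embryo 2. Its call held in 6 of 12 fits that left out 1 embryo, with adjusted p up to 0.0887 without wild-type embryo 4, and was lost without wild-type embryo 2, 3 or 4 or mutant-labelled embryo 1, 7 or 8.

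Msgn1 stood at 3.19, 9.72, 8.12 and 8.52 CPM in wild type and at 0 (lowest), 4.22 (median) and 6.47 CPM (highest) in the mutant-labelled embryos. Wild-type embryo 1 lay within the mutant-labelled range, at 36.3% of the mean of the other wild-type embryos, and 2 of 8 mutant-labelled embryos lay below it. The difference did not pass (log2 fold change -0.84, SE 0.58, adjusted p = 0.25), nor did it without mutant-labelled embryo 2 (-0.65, SE 0.30, adjusted p = 0.0866). With that embryo and wild-type embryo 1 both left out, Msgn1 fell by 0.89 (SE 0.24, adjusted p = 0.00898). Its call therefore depends on 1 embryo in each group.

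**Figure D2:**
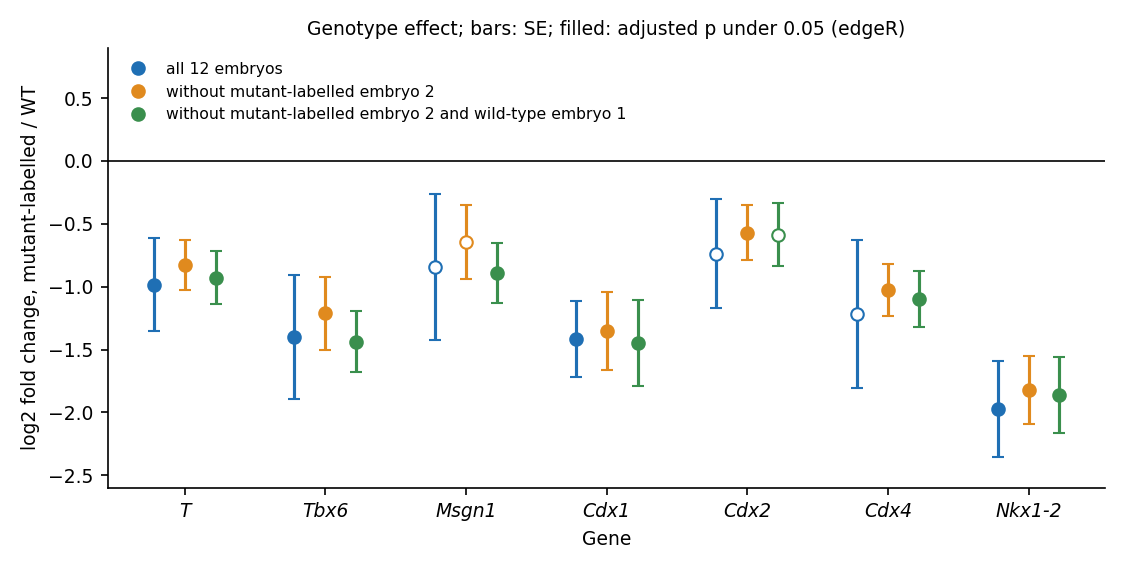
Log2 fold change between mutant-labelled and wild-type embryos (vertical axis) with SE for each gene, in 3 fits over all genes that differ in the embryos kept; filled points have an adjusted p under 0.05. Nkx1-2, Cdx1, Tbx6 and T are filled in all 3 fits, Cdx4 in both fits without embryo 2, Cdx2 only in the fit without embryo 2 alone and Msgn1 only in the fit that also leaves out wild-type embryo 1.

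In 4 of the 7 genes (Nkx1-2, Cdx1, Cdx4 and Cdx2) all 8 mutant-labelled embryos lay below all 4 wild-type embryos, against 17.1% of genes tested with this order. Without embryo 2, 6 of the 7 genes were called as lower, against 24.5% of 14375 genes. The share of lower calls among the members was thus above the background with and without that embryo; the members were chosen with results of these data known, so this is a description.

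The order of the embryos was much the same from gene to gene. Wild-type embryo 1 was the lowest wild-type embryo in all 7 genes, and wild-type embryo 4 the highest in 6. Among the mutant-labelled embryos, embryo 2 was the lowest in 6 genes and embryo 7 the second lowest in the same 6, while in Cdx1 embryo 7 was the lowest and embryo 8 the second lowest. The highest mutant-labelled embryo was 3, 4 or 6 in every gene. As the median over the 7 genes of log2 CPM minus the wild-type mean, embryos 3, 4 and 6 stood at -0.73, -0.60 and -0.68, embryos 5 and 1 at -0.98 and -1.003, embryos 8 and 7 at -1.47 and -1.86, and embryo 2 at -4.02. Embryo 2 had the largest total of the 12 libraries, 21346245 counts, and embryo 7 the smallest, 16802367; the part of depth in the order was not tested.

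**Figure D3:**
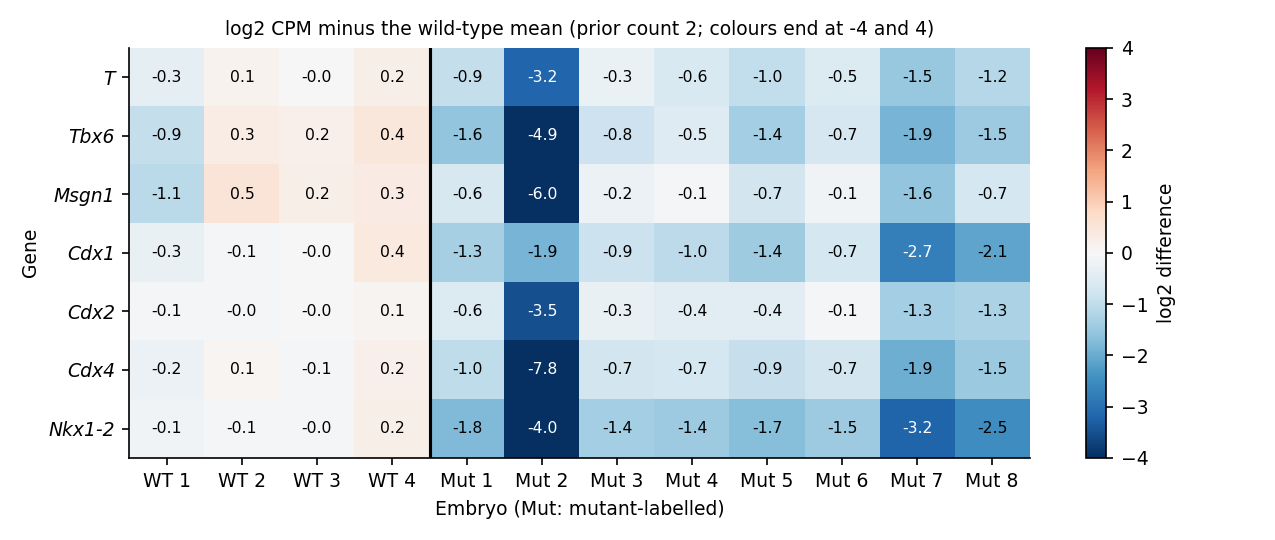
Log2 CPM (prior count 2) minus the wild-type mean, for the 7 genes in rows and the 12 embryos in columns; blue is lower than wild type and red higher. The column of mutant-labelled embryo 2 (Mut 2) is the darkest except in the row of Cdx1, where embryo 7 is darker, and Nkx1-2 is lower in every mutant-labelled embryo, by 1.37 or more.

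Embryo 2 did not lose all members alike. Cdx4 had 5 counts there, or 0.238 CPM (95% exact Poisson interval 0.0773 to 0.556, counting error only), 157-fold below the mean of the other 7 mutant-labelled embryos. Tbx6 had 6 counts, 18.9-fold below that mean. Msgn1 had none, with a 95% exact Poisson interval of 0 to 0.176 CPM. The lowest other mutant-labelled embryo, embryo 7, stood at 2.21 CPM (interval 1.57 to 3.04 CPM). Cdx2 was 7.86-fold below the mean of the others, T 5.25-fold and Nkx1-2 4.81-fold. Cdx1, in contrast, stood at 7.43 CPM, 1.48-fold below that mean and within the range of the others (4.02 to 16.8 CPM). Embryo 2 was below every other mutant-labelled embryo in 6 of the 7 genes, against 13.7% of genes tested. It was at least 2-fold below the lowest of them in 5 of the 7 genes, against 0.84% of genes tested, a limit set after the values were seen. The members were chosen with the low values of this embryo known, so both counts are a description.

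The sizes of the changes were compared with ratios of 2 genes within an embryo, which do not depend on scaling between libraries. Over all 12 embryos 2 of 21 pairs differed between the groups after adjustment over the 21 pairs (two-sided exact permutation test over the 495 splits of 12 embryos into 4 and 8), and both involved Nkx1-2. The ratio of T to Nkx1-2 was 1.18 to 1.61 in wild type and 2.27 to 4.51 in the mutant-labelled embryos other than embryo 2, which stood at 2.52. On the log2 scale it rose from 0.46 ± 0.18 (SD, n = 4) to 1.49 ± 0.33 (SD, n = 8), with exact p = 0.00202, the smallest these splits can give, and adjusted p = 0.0212. The log2 ratio of Cdx2 to Nkx1-2 rose from 1.22 ± 0.09 (SD, n = 4) to 2.41 ± 0.38 (SD, n = 8), with the same exact p and adjusted p. Nkx1-2 thus fell further than T and Cdx2 in every mutant-labelled embryo, embryo 2 included.

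Without embryo 2, 11 of 21 pairs differed (330 splits, smallest exact p 0.00303). Nkx1-2 fell further than each of the other 6 genes, with adjusted p between 0.00707 and 0.0463. Among the caudal genes, Cdx1 fell further than Cdx2 (difference of the log2 ratio -0.83, exact p = 0.00303, adjusted p = 0.00707) and Cdx4 further than Cdx2 (0.44 in the log2 ratio of Cdx2 to Cdx4, with the same exact p and adjusted p), while Cdx1 and Cdx4 were not told apart (-0.39, exact p = 0.0333, adjusted p = 0.0538). Tbx6 fell further than Msgn1: the ratio of Tbx6 to Msgn1 was 1.48 to 1.89 in wild type and 0.904 to 1.42 in these 7 embryos (log2 difference -0.59, exact p = 0.00303, adjusted p = 0.00707). T and Cdx2 were not told apart (-0.23, exact p = 0.161, adjusted p = 0.198). Embryo 2 had the reverse balance of caudal genes, with a ratio of Cdx4 to Cdx1 of 0.0321 where wild-type embryos had 2.42 to 3.06 and the remaining 7 had 2.73 to 4.88.

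**Figure D4:**
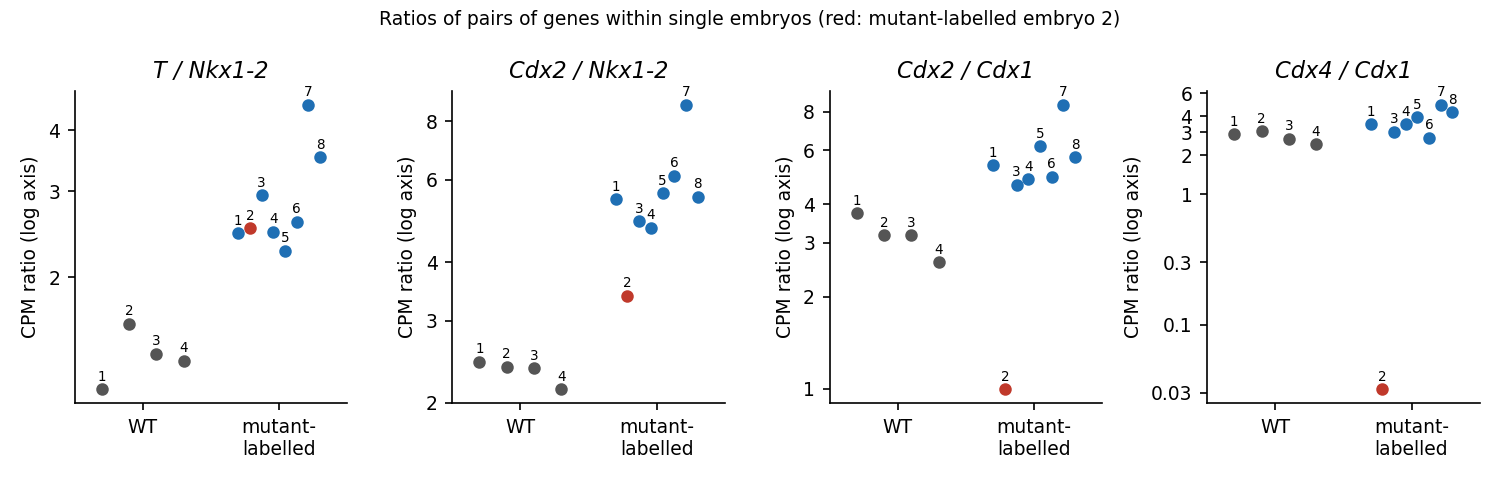
Ratio of the CPM of 2 genes within each embryo (vertical log axes) in wild-type and mutant-labelled embryos, with embryo numbers. The ratios of T and Cdx2 to Nkx1-2 are higher in all 8 mutant-labelled embryos than in wild type, while embryo 2, in red, stands alone in the ratios to Cdx1, at 1 for Cdx2 and 0.0321 for Cdx4.

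The genes with the profile most like the mean of the members were sought among 12326 genes by the root mean square difference of log2 CPM from the wild-type mean over the 12 embryos. These include mutant-labelled embryo 2, whose low values were known when the members were chosen. No ranking without it was made, so the likeness is a description. The nearest were the trunk homeobox gene Hoxc8 (0.24, against a median of 1.595 over all these genes), Mira (0.31), a noncoding RNA gene between Hoxa6 and Hoxa7 in the RefSeq table, Hoxa9 (0.34), the phosphatase gene Ppef2 (0.38) and the segmentation clock gene Hes7 (0.46). Hoxc8 stood at 54 CPM in wild type, at 19.2 to 31.6 CPM in the mutant-labelled embryos other than embryo 2 and at 2.33 CPM in embryo 2. Ppef2 stood at 3.64 CPM, 0.931 to 2.27 CPM and 0.19 CPM in the same order. For single members, the nearest gene was Mixl1 for T (0.22) and for Cdx2 (0.26), a homeobox gene of the primitive streak, Hoxc8 for Tbx6 (0.37), Mira for Msgn1 (0.57), D6Mm5e for Cdx1 (0.39), Hoxa9 for Cdx4 (0.84) and the ephrin receptor gene Epha5 for Nkx1-2 (0.48). Mixl1 averaged only 1.25 CPM over wild-type embryos and had 1 count in embryo 2, where the prior count of 2 weighs on its log2 level. Its likeness to T and Cdx2, with 116 and 156 counts there, is therefore uncertain. Its genotype call was at the threshold (adjusted p = 0.0498 in edgeR) and was lost in DESeq2 (adjusted p = 0.0626). Epha5 averaged 9.08 CPM over wild-type embryos but 2.17 CPM over all 8 others, with 1.85 to 3.55 CPM in the 7 embryos and 0.238 CPM in embryo 2.

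Genes listed as signals and partners of the axial progenitors fell more often than they rose. The embryos were sequenced whole, so the RNA of these genes need not come from the posterior end. Of 29 listed genes, all of which were tested, 17 fell, none rose and 12 did not pass (24.9% of all genes tested fell and 26.6% rose), with a list median of -0.35 against 0.01 over all genes tested. The lowest p-values belonged to Wnt3a, a Wnt ligand gene, Fgf17, Axin2 and Wnt8a. Fgf17, an FGF ligand gene, went from 19.4 CPM (19 to 20.1) down to 8.88 CPM (log2 fold change -1.13, SE 0.14, adjusted p = 1.45e-05), with 6.38 CPM in embryo 2 and a range of 6.69 to 11.2 CPM over the other 7. Wnt3a (-0.78, SE 0.10) stood at 12.8 CPM in embryo 2, above the other mutant-labelled embryos (8.67 to 12.6 CPM), and Wnt8a (-1.54, SE 0.27) at 0.524 CPM, within their range (0.175 to 0.882 CPM). Over the list, 11 of the 29 genes were lowest in embryo 2 among the mutant-labelled embryos, against 13.7% of all genes tested, among them Wnt5a (46.8 CPM, with 70.9 to 88 CPM in the other 7) and Wnt5b (22.3 CPM, with 22.8 to 36.7 CPM). At least 2-fold below the lowest other mutant-labelled embryo were 3 of the 29, against 0.84% of all genes tested. These were Evx1 (1.62 CPM, with 10.4 to 30.7 CPM in the other 7), Fgf18 (1.52 CPM, with 3.29 to 5.38 CPM) and Mixl1 (1 count). The median over the list of log2 CPM in embryo 2 minus the mean of the other 7 was -0.05.

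Genes listed as downstream of Tbx6 and Msgn1 in the presomitic mesoderm and somites also fell more often than they rose. Their RNA, too, was measured in whole embryos. Of 20 tested, 13 fell, 1 rose (Ripply1) and 6 did not pass, with a list median of -0.52; over all genes 24.9% fell, 26.6% rose and the median was 0.01. The 4 with the lowest p-values were the Notch modulator gene Lfng (-0.52, SE 0.10), the somite gene Tcf15 (-0.74, SE 0.16), Hes7 (-1.74, SE 0.44) and Ripply2 (-1.21, SE 0.35), with adjusted p between 0.000526 and 0.00843. Ripply2 lost its call without wild-type embryo 2 (-0.83, adjusted p = 0.0723), and Hes7 when adjusted for the red cell marker level (-1.53, adjusted p = 0.0511). Hes7 and Tcf15 differed in embryo 2: Hes7 stood at 0.238 CPM there, below the 2.35 to 6.29 CPM of the other 7, and Tcf15, which marks formed somites, at 12.8 CPM, within their 9.24 to 14.9 CPM. Over the list, 9 of the 20 genes were lowest in embryo 2 among the mutant-labelled embryos, against 13.7% of all genes tested. The list median of log2 CPM in embryo 2 minus the mean of the other 7 was -0.21. When the red cell marker level, the mean log2 CPM of the listed red cell genes, was added as a covariate, 5 of the 20 genes fell and 1 rose.

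Hox genes, many of which Cdx factors activate, were counted in 2 lists. Of 11 genes of paralog groups 5 to 8, 1 fell (Hoxc8, log2 fold change -1.30, SE 0.41, adjusted p = 0.0196), 2 rose (Hoxb6 at 0.52, SE 0.11, and Hoxb5 at 0.43, SE 0.15) and 8 did not pass; over all genes tested 24.9% fell and 26.6% rose. Hoxc8 lost its call when adjusted for the red cell marker level (-0.92, adjusted p = 0.135). Hoxb5 lost its call without wild-type embryo 1 (0.26, adjusted p = 0.0804). Without embryo 2, 5 fell and 2 rose. Hoxc6 did not pass over all embryos (-0.80, SE 0.37, adjusted p = 0.0894) and fell without embryo 2 (-0.63, adjusted p = 0.000226). Of 16 listed genes of groups 9 to 13, 11 were tested; 1 of them fell (Hoxd13, -2.02, SE 0.37) and none rose, and without embryo 2, 5 fell and 1 rose. In embryo 2, 7 of the 11 genes of groups 5 to 8 were at least 2-fold below the lowest other mutant-labelled embryo, against 0.84% of all genes tested. The remaining genes of groups 5 to 8 were not lowest in that embryo. Each of the 11 tested genes of groups 9 to 13 was at least 2-fold below in embryo 2. Among them Hoxa9, Hoxb9 and Hoxc9 stood at 0.571, 7.05 and 0.809 CPM there, against 8.68 to 15.5, 70.7 to 95.1 and 7.98 to 11.8 CPM. Hoxd11 and Hoxd13 had 0 counts there, Hoxd10 had 1 and Hoxa13 had 2. The lowest other mutant-labelled embryo was at only 0.308 CPM for Hoxd11 and 0.233 CPM for Hoxa13, so for these genes the difference rests on few reads.

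**Figure D5:**
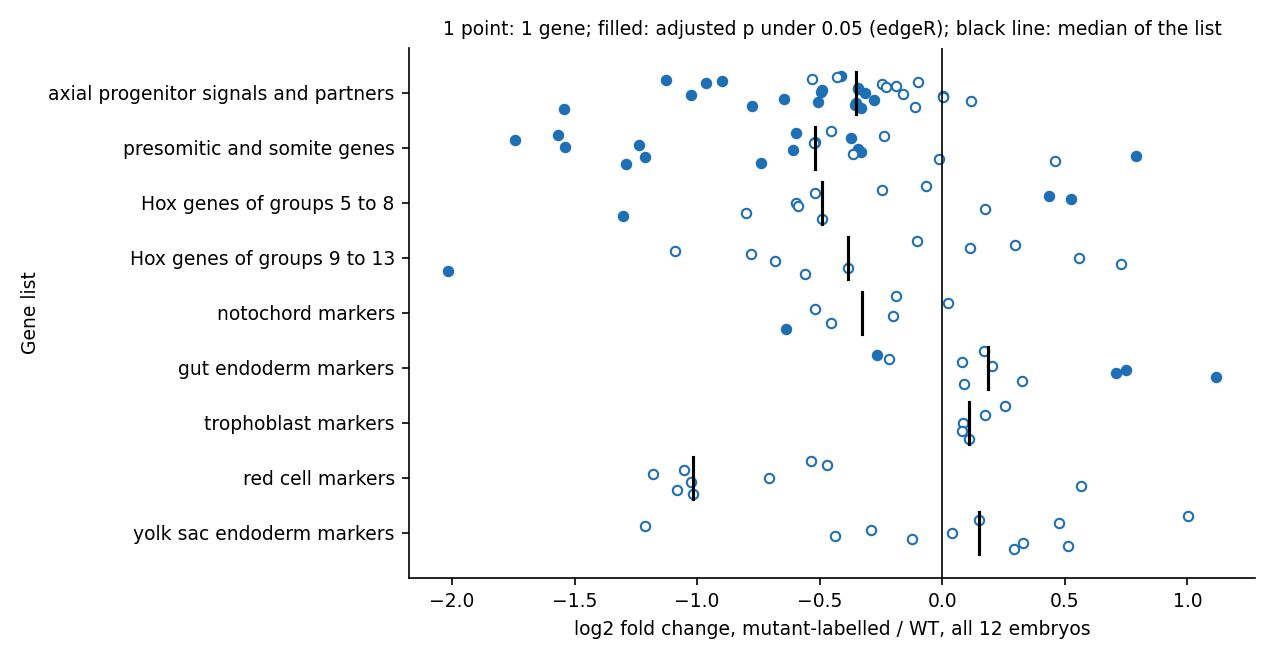
Log2 fold change over all 12 embryos (horizontal axis) of each tested gene of 9 lists (rows); filled points have an adjusted p under 0.05 and black lines are list medians. The axial progenitor and presomitic lists lie mostly below 0, with medians of -0.35 and -0.52, while no red cell, yolk sac or trophoblast marker is filled.

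Members are also expressed outside the tailbud, so markers of those tissues were counted. T is a notochord gene: of 6 notochord markers 1 fell (Shh, log2 fold change -0.64, SE 0.12, adjusted p = 0.000313) and none rose. Over all genes tested 24.9% fell. The summed level of the notochord markers was 51.1 to 58.5 CPM in wild type. Mutant-labelled embryos had sums of 36.6 to 49.9 CPM, with 41.8 CPM in embryo 2. These ranges did not overlap, but groups did not overlap in 34.7% of single genes tested, in either direction. Much of the fall was Shh: its mean went from 21.5 to 13.8 CPM, and the mean sum from 54.3 to 44 CPM. Foxj1 (-0.52, SE 0.22), Nog (-0.20, SE 0.13) and Chrd (-0.19, SE 0.17) did not pass. Noto, which marks the posterior notochord and node, had 2 counts in embryo 2, 0.0952 CPM, below the 0.519 to 1.97 CPM of the other 7. Foxa2 stood at 14.9 CPM there, within their 10.7 to 18.6 CPM. Cdx2 is a hindgut gene: of 10 gut endoderm markers 3 rose (Krt19 at 0.75, SE 0.13, Nepn at 0.71, SE 0.17, and Pyy at 1.12, SE 0.40), near the 26.6% of all genes that did, and Epcam fell by 0.27 (SE 0.07). The call of Pyy was lost without any 1 wild-type embryo (adjusted p = 0.0552 to 0.0807), without mutant-labelled embryo 2 (0.0503) or 5 (0.0511), and when adjusted for the red cell marker level (0.67, adjusted p = 0.171). The summed level of the gut markers was 333 to 422 CPM in wild type and 289 to 515 CPM in the mutant-labelled embryos, with 484 CPM in embryo 2. Of 9 trophoblast markers 5 were tested, of which edgeR called 0 (0 at an unadjusted p under 0.05), as did DESeq2 and limma-voom (1 of the 9, Tpbpa, was at 0 in all wild-type embryos); the lowest p-values were those of Gata3 (0.08), Elf5 (0.18), Tfap2c (0.11) and Ascl2 (0.26). Summed trophoblast levels were 30.9 to 39.2 CPM in wild type and 31.9 to 44.1 CPM in the other group. The part of these tissues in the results was not tested.

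Blood and yolk sac content also varied between embryos. Of 10 red cell markers 9 were tested, of which edgeR called 0 (1 at an unadjusted p under 0.05), DESeq2 0 and limma-voom with sample quality weights 8, all lower. The list median was -1.02; among those with the lowest p-values were Klf1 (log2 fold change -1.08), Epor (-0.47) and Gata1 (-1.06), and Hba-a1 was at 0 in all 12 embryos. Their summed level was 814 to 1362 CPM in wild type, 39.2 CPM in mutant-labelled embryo 2, 248 to 437 CPM in embryos 3, 4, 5 and 6 and 1143 to 1726 CPM in embryos 1, 7 and 8. With the mean log2 level of these markers as a covariate, the calls of T (-0.75, adjusted p = 0.207) and Tbx6 (-1.14, adjusted p = 0.176) were lost. Msgn1 stood at -0.44 (adjusted p = 0.648), Cdx2 at -0.49 (adjusted p = 0.491) and Cdx4 at -0.86 (adjusted p = 0.381), while Cdx1 (-1.54, adjusted p = 0.00724) and Nkx1-2 (-1.87, adjusted p = 0.0126) kept theirs. Of 11 yolk sac endoderm markers edgeR called 0 (0 at an unadjusted p under 0.05) and DESeq2 0, while limma-voom with sample quality weights called 1, Apoa4 (-1.64, adjusted p = 0.0376). The edgeR log2 fold changes were 1.004 for Afp, -1.21 for Apoa4, 0.48 for Apoa1 and 0.51 for Trf, which had the lowest p-values. Their summed level was lowest in wild-type embryo 1 (641 CPM; 1714 to 2336 CPM in wild-type embryos 2 to 4) and ran from 755 CPM in embryo 2 to 3562 CPM in the mutant-labelled group. With the mean log2 level of these markers as a covariate the same 4 members were called as over all 12 embryos.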

How the data were processed

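The deposited values are unnormalized read counts by gene symbol. The submitters' processing notes list STAR, featureCounts, FastQC, DESeq2 and build mm9; the sources used here give no versions, annotation or strand setting. The genotype label set each embryo's group. Because each sample is 1 embryo, p-values reflect variation among embryos, some of which may be litter mates. No 2 embryos of a group agreed within sampling noise (lowest chi-square per degree of freedom 3.89).

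For the 14412 genes that passed filterByExpr, edgeR 4.0.16 (R 4.3.3) compared genotypes (TMM scaling, robust quasi-likelihood F test of genotype, no covariate, Benjamini-Hochberg over all genes tested, threshold 0.05). The SE is the size of the log2 fold change over the square root of F. Log2 CPM for ratios and profiles has a prior count of 2. The test was checked on simulated counts with known changes.

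Genes named are the 7 members, Tgif1 and Tgif2, up to 4 genes with the lowest p from each of 9 lists (1 of them is not reported here), and the genes of the nearest profiles with a wild-type mean of at least 1 CPM, without predicted genes, Y-linked genes or Xist. Ripply1, Noto, Foxa2, Tpbpa, Hba-a1, Wnt5a, Wnt5b, Evx1, Fgf18, Hoxd10, Hoxd11 and Hoxa13 were named after their values were seen. The members and lists were chosen with earlier results of these data known. Spink1 was counted under its older symbol Spink3. Near-identical copies were sought with BLAST 2.17.0 in GENCODE M21 transcripts (at least 200 bases at 95% identity).

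Alternatives were DESeq2 1.42.0, voom in limma 3.58.1 with sample quality weights, upper-quartile or RLE scaling, other count filters, embryos left out, a covariate for red cell or yolk sac markers and, for ratios, another prior count. Added after seeing the data were the Xist level as a covariate and the removal of trends on GC content and transcript length.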

Additional observations from a re-analysis of the deposited data

Results flagged for a closer look

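Among 32 groups of embryos, taken over the 7 genes and the 9 list means in each genotype, 9 held 1 embryo far from the rest on the log2 CPM scale, by a gap to its neighbour that takes up most of the range. Chance gives about 1 in 20 groups, but the groups share embryos, and the members were chosen with the low values of mutant-labelled embryo 2 known, so the count is a description. Mutant-labelled embryo 2 was that embryo in 7 of them: T at 2.49 (the others at 4.14 to 5.40), Tbx6 at -1.35 (1.70 to 3.05), Msgn1 at -3.24 (1.21 to 2.72), Cdx2 at 2.91 (5.09 to 6.37), Cdx4 at -1.54 (4.30 to 5.53), the mean over Hox genes of groups 5 to 8 at 1.67 (3.28 to 3.602) and the mean over tested Hox genes of groups 9 to 13 at -1.03 (1.84 to 2.68). Wild-type embryo 1 was that embryo in the remaining groups, in Tbx6 at 2.62 (the other wild-type embryos at 3.77 to 4.01) and in Msgn1 at 1.72 (3.04 to 3.30). Cdx1 and Nkx1-2 held no such embryo in either genotype. What sets these embryos apart was not tested.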

How the results depend on the processing

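No paired analysis was possible because the labels carry no number that ties an embryo of one genotype to an embryo of the other. Over 23 alternatives, no member reversed: 139 of 161 values kept their side of the threshold, 18 lost the call and 4 gained it. With 1 embryo left out at a time, log2 fold changes ran from -1.12 to -0.83 for T, -1.63 to -1.21 for Tbx6, -1.09 to -0.65 for Msgn1, -1.54 to -1.26 for Cdx1, -0.86 to -0.57 for Cdx2, -1.31 to -1.03 for Cdx4 and -2.08 to -1.82 for Nkx1-2; Cdx1 and Nkx1-2 were called in all 12 of these fits. Without a filter on low counts T (-0.98, adjusted p = 0.0665) and Tbx6 (-1.39, adjusted p = 0.0543) lost their calls; the cause was not tested. Adjusted for the red cell score, T (-0.75) and Tbx6 (-1.14) lost theirs, 6 presomitic and somite genes were called in place of 14, 2 notochord markers in place of 1 and 2 red cell markers in place of 0; that score is lowest in embryo 2. With mutant-labelled embryo 2 and wild-type embryo 1 both left out Msgn1 (-0.89) and Cdx4 (-1.10) gained calls, and 6 Hox genes each of groups 5 to 8 and 9 to 13 were called. With sample quality weights 6 and 2 of these Hox genes, 2 notochord, 8 red cell and 1 yolk sac marker were called, and with the yolk sac score as a covariate 7 yolk sac markers. After removal of GC and length trends 3 notochord markers were called. With 1 embryo left out, called genes numbered 2 to 7 and 1 to 6 in the Hox lists, 11 to 17 among axial progenitor genes, 1 to 2 among notochord and 0 to 2 among red cell markers. Pairs that differed numbered 0 to 11: 0 without any 1 wild-type embryo, where the fewer splits cannot pass the adjustment with 2 pairs at their smallest p, and 11 without mutant-labelled embryo 2. Tfap2c, not called over all 12 embryos, ran from -0.00115 (reversed, without wild-type embryo 3) to 0.229 with 1 embryo left out, and reversed to -0.0944 when adjusted for the red cell score. All genes called numbered 6342 to 8607 over the alternatives. A low count limits Msgn1, with at most 192 counts in an embryo.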

Other observations

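Cdx4 is X-linked, and Xist, the RNA of the inactive X chromosome, was under 1 CPM in wild-type embryo 2 and in mutant-labelled embryos 3, 5 and 7. Cdx4 stood at 80.6 CPM in that wild-type embryo, within the 64.1 to 87.8 CPM of the others, and at 45.7, 40.3 and 19.6 CPM in those mutant-labelled embryos, whose range takes in embryos 1 and 8 (37.7 and 27 CPM) but not embryos 4 and 6 (46 and 45.8 CPM). Embryo 2, with Xist at 427 CPM, lay far below that range, with Cdx4 at 0.238 CPM. With the Xist level as a covariate the log2 fold change of Cdx4 was -1.24 (adjusted p = 0.121, edgeR).

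The mutant-labelled embryos with the lowest members besides embryo 2 were not those with low blood content. Embryos 7 and 8 had summed red cell markers of 1143 and 1726 CPM, against 248 CPM in embryo 4, which had the highest median level of the 7 genes in this group. Embryo 8 had the lowest summed gut endoderm markers of the 12 embryos, 289 CPM, and embryo 7 the next lowest of the mutant-labelled group, 390 CPM. No relation was tested.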
